A study of Mus musculus with 3 samples.

Results

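The Cyp2b9, Cyp2b10 and Cyp2b13 genes encode cytochrome P450 enzymes of subfamily 2B, and they are 3 of the 32285 genes counted in single-nucleus RNA sequencing (sNuc-Seq) of mouse liver. They were selected on measured values, the UMI counts of Cyp2b9, which were near 0 in the normal-diet liver and high in both diseased livers, so their levels between diets are given as a description with no test. Nuclei came from frozen livers of 1 mouse on a normal diet (ND, male, no streptozocin) and 2 male C57BL/6J mice with metabolic dysfunction-associated steatohepatitis (MASH)-related liver fibrosis (STZ-HFHC 1 and 2). Each mouse gave 1 library. Both diseased mice had received 0.2 mg of streptozocin (STZ), which destroys pancreatic islets, under the skin at 3 days of age, and from 4 weeks of age they ate chow rich in fat and cholesterol (HFHC; fat 41 kcal%, carbohydrate 43 kcal%). Streptozocin and the diet cannot be told apart in this design, and neither can the single ND mouse and its diet.

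Enzymes of this subfamily oxidize drugs, steroids and fatty acids in the endoplasmic reticulum of hepatocytes. Cyp2b10 is the textbook target of the constitutive androstane receptor (CAR, encoded by Nr1i3), which is activated by phenobarbital-like compounds and binds DNA with the retinoid X receptor. Cyp2b9 and Cyp2b13 are known in mice as genes with higher expression in female than in male liver, where the pulsatile growth hormone pattern of males keeps them low.

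The genes lie in a cluster of cytochrome P450 genes on the plus strand of chromosome 7 (GRCm38, GENCODE M21). Cyp2b10 (ENSMUSG00000030483) spans chr7:25897620-25926624 with 10 exons, Cyp2b13 (ENSMUSG00000040583) spans chr7:26061497-26096197 with 9 exons, and Cyp2b9 (ENSMUSG00000040660) spans chr7:26173411-26210661 with 9 exons. Cyp2b10 and Cyp2b13 are 135 kb apart, and Cyp2b13 and Cyp2b9 are 77.2 kb apart. The 250 bases before each annotated start (RefSeq, GRCm38.p6, plus strand, 5′ to 3′) are shown because all 3 genes were higher in both STZ-HFHC mice than in ND but differed in where within the liver they were found. Positions before a start are counted from the RefSeq start, which for Cyp2b10 lies inside the GENCODE gene, so this window runs past the start given above. In the first 2 sequences the capitals mark the bases that differ between Cyp2b9 and Cyp2b13, and in the third they mark an 8-letter run that Cyp2b10 alone among the 3 holds.
Cyp2b9, chr7:26173159-26173408: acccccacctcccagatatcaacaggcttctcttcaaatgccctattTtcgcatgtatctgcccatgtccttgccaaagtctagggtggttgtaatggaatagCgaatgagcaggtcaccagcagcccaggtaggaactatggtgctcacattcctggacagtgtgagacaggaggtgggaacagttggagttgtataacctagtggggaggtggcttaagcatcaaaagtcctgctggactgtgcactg
Cyp2b13, chr7:26061245-26061494: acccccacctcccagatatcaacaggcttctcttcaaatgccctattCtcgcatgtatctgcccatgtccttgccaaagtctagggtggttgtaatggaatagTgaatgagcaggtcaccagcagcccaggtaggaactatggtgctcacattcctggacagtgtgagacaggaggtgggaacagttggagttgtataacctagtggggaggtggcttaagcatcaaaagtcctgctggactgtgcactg
Cyp2b10, chr7:25897408-25897657: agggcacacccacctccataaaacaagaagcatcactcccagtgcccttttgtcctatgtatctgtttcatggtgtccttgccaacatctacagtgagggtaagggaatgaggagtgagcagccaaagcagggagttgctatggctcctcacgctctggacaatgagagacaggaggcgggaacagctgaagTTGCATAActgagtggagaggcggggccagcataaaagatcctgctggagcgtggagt

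The Cyp2b9 and Cyp2b13 sequences matched at 248 of 250 positions (99.2%). From Cyp2b13 to Cyp2b9 the differences were C48T and T104C, counted from 1 at the 5′ end of the window, or 203 and 147 bases before the start. Cyp2b10 matched either of them at 179 of 240 aligned positions (74.6%). The letters TTGCATAA, a C/EBP-like element, stood 58 bases before the RefSeq start of Cyp2b10, and the same place in Cyp2b9 and Cyp2b13 read TTGTATAA. On both strands, TTGCATAA was found in 0.694% of 32851 promoter windows of this length. AGGTCA, a nuclear receptor core site, was found once in Cyp2b9 and once in Cyp2b13 and not in Cyp2b10, and in 14.0% of all windows. The direct repeat of AGGTCA called DR4, to which CAR binds, and the STAT-type letters TTCNNNGAA were in none of the 3 windows, beside 0.0152% and 7.02% of all windows. These windows say nothing of more distant elements.

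The 3 genes are similar enough in sequence for counting to matter. The longest GENCODE M21 transcripts of Cyp2b9 and Cyp2b13 were 91.7% identical, those of Cyp2b9 and Cyp2b10 87.5%, and those of Cyp2b10 and Cyp2b13 88.1%. Of all 50-base windows of a transcript, 11.2% in Cyp2b9 and 9.69% in Cyp2b10 also occurred in a transcript of another gene. In Cyp2b13 the share was 27.3% (498 of 1826 windows), of which 198 windows were shared with Cyp2b9 and 252 with the pseudogene Gm45225. Introns, which hold many reads in nuclei, could not be assessed in this way. The levels of Cyp2b13 are therefore less certain than those of the other two genes.

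In all, 28336 nuclei passed the limits on genes and mitochondrial counts, namely 8494, 8921 and 10921 from ND, STZ-HFHC 1 and STZ-HFHC 2. Their median depths were 4068, 3015 and 4027 unique molecular identifiers (UMIs). Each pair of libraries shared 29 to 32 barcode sequences. Clusters were built without the Cyp2b genes and named from marker lists. Hepatocyte-like nuclei numbered 5403, 2864 and 4753 in ND, STZ-HFHC 1 and STZ-HFHC 2 (63.6%, 32.1% and 43.5%), with median depths of 4031, 8022 and 6522 UMIs. The ND hepatocyte-like nuclei lay mainly in clusters 1, 3 and 6 and those of STZ-HFHC in clusters 13, 20 and 21, so a cluster may stand for a library as much as for a state. The Y-linked genes Ddx3y and Uty were at 142 to 168 and 301 to 437 CPM (a gene's UMIs scaled to a common total) in the 3 libraries, and Xist was at 0.519 to 0.913 CPM, as in male tissue.

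Cyp2b9 had 15 UMIs in hepatocyte-like nuclei of ND, 14054 in those of STZ-HFHC 1 and 11448 in those of STZ-HFHC 2. As CPM of all UMIs of these nuclei its levels were 0.584, 553 and 328. Both STZ-HFHC libraries were high and the ND library was near 0. Relative to ND, Cyp2b9 was 948 times as high in the first diseased mouse (exact 95% interval 574 to 1694) and 562 times in the second (341 to 1005), and the mean log2 ratio was 9.46 ± 0.53 (SD, n = 2). These intervals, like all below, cover counting error only and not the spread between mice.

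Cyp2b10 had 101, 875 and 1880 UMIs in ND, STZ-HFHC 1 and STZ-HFHC 2, which gave 3.93, 34.4 and 53.9 CPM. It was the only one of the 3 genes with more than 15 UMIs in ND hepatocyte-like nuclei. The ratios to ND were 8.76 (7.12 to 10.9) and 13.7 (11.2 to 16.9), and their log2 values averaged 3.45 ± 0.46 (SD, n = 2).

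Cyp2b13 had 1, 310 and 267 UMIs in the 3 libraries, or 0.0389, 12.2 and 7.65 CPM. The ratio to ND rests on that 1 UMI and was 314 (55.9 to 12424) in STZ-HFHC 1 and 197 (35.0 to 7796) in STZ-HFHC 2. With 0.5 added to every count, the log2 ratios averaged 7.37 ± 0.48 (SD, n = 2).

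Between the 2 STZ-HFHC mice the genes did not keep 1 order. Cyp2b9 was higher in STZ-HFHC 1 than in STZ-HFHC 2 by a ratio of 1.69 (1.64 to 1.73), and Cyp2b13 was higher by 1.59 (1.35 to 1.89). Cyp2b10 went the other way, with a ratio of 0.639 (0.589 to 0.693). The higher mouse was thus STZ-HFHC 1 for Cyp2b9 and Cyp2b13 and STZ-HFHC 2 for Cyp2b10.

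All 3 genes passed a rule of size that took the place of a test, at least 50 UMIs in all and a difference from ND of at least 2-fold with the same sign in each STZ-HFHC mouse. Of 14804 genes with enough UMIs, 1225 passed as higher (8.27%) and 829 as lower (5.6%). Since the genes were picked for this contrast, their passing is not a result. Ranked among all of these genes by the smaller of the 2 ratios, Cyp2b9 was 2, Cyp2b13 was 5 and Cyp2b10 was 118. Next to Cyp2b9 stood Cyp2a4, which encodes a steroid hydroxylase, with 0, 1209 and 384 UMIs in ND, STZ-HFHC 1 and STZ-HFHC 2, and Ephb2, an ephrin receptor, with 7, 1217 and 3122. Next to Cyp2b13 stood Gsta1, a glutathione transferase, with 0, 83 and 89 UMIs. Next to Cyp2b10 stood Nrg4, a secreted epidermal growth factor-like ligand, with 2300, 19705 and 36171.

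Per kilobase of annotated gene, levels in STZ-HFHC hepatocyte-like nuclei followed the order Cyp2b9, Cyp2b10, Cyp2b13 in both mice. The STZ-HFHC 1 levels were 14.8, 1.19 and 0.352 CPM per kb, and those of STZ-HFHC 2 were 8.81, 1.86 and 0.221 CPM per kb. In ND the order was different, with Cyp2b10 first at 0.135, then Cyp2b9 at 0.0157 and Cyp2b13 at 0.00112 CPM per kb, the last 2 on 15 UMIs and 1 UMI.

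**Figure D1:**
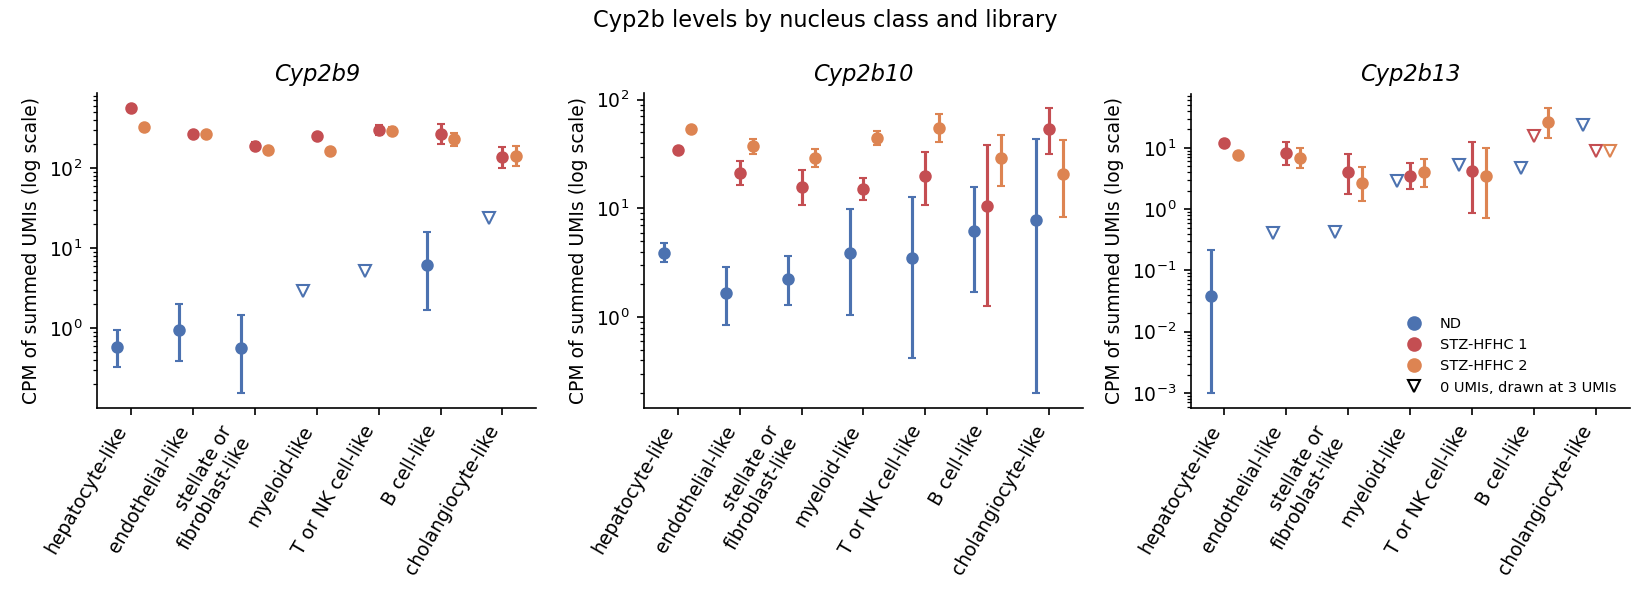
Levels of Cyp2b9, Cyp2b10 and Cyp2b13 in CPM (log axis) in each named nucleus class of each library, with exact 95% Poisson intervals of counting error and open triangles at 3 counts for 0 UMIs. The STZ-HFHC levels of Cyp2b9 lie between 136 and 553 CPM in hepatocyte-like, endothelial-like, stellate-like, myeloid, T or NK, B and cholangiocyte-like nuclei, and hepatocyte-like nuclei are highest in both mice.

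Hepatocyte-like nuclei had the highest Cyp2b9 level of the named classes in both STZ-HFHC mice, but no class was free of it. Endothelial-like nuclei held 264 and 267 CPM in STZ-HFHC 1 and 2, T or NK-like nuclei 299 and 289, and cholangiocyte-like nuclei 136 and 142, in cell types not known to make this enzyme. In ND the same classes held 0.965, 0 and 0 CPM. Over all other named classes the Cyp2b9 level was 0.438 and 0.627 times the hepatocyte-like level in STZ-HFHC 1 and 2, beside 0.569 and 0.702 times for the summed hepatocyte markers. Per 1000 hepatocyte-marker UMIs there were 22.9 and 13.2 Cyp2b9 UMIs in the other classes, and 29.8 and 14.8 in hepatocyte-like nuclei. In ND B cell-like nuclei there were 4 Cyp2b9 UMIs in 153 nuclei. The part of free RNA and of doublets in these levels was not tested.

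For Cyp2b10 and Cyp2b13 the hepatocyte-like level was not always the highest. Cyp2b10 was at 53.3 CPM (31.6 to 84.2) in the cholangiocyte-like nuclei of STZ-HFHC 1, on 18 UMIs in 6 nuclei. It was at 55.1 CPM (40.7 to 73.1) in the T or NK-like nuclei of STZ-HFHC 2. Both intervals hold the hepatocyte-like level of the same mouse, 34.4 and 53.9 CPM. In unnamed cluster 4, Cyp2b13 was at 19.1 (14.8 to 24.3) and 11.8 (7.64 to 17.4) CPM in STZ-HFHC 1 and 2, on 66 and 25 UMIs. Its hepatocyte-like levels were 12.2 and 7.65 CPM. Cyp2b13 was at 26.9 CPM in the B cell-like nuclei of STZ-HFHC 2, on 14 UMIs from 2 nuclei. In the larger endothelial-like class Cyp2b10 was at 21.3 and 37.5 CPM and Cyp2b13 at 8.23 and 6.95 CPM in STZ-HFHC 1 and 2, below the hepatocyte-like levels of the same mice.

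The share of nuclei with a UMI was compared after each nucleus was thinned to 1000 UMIs, with 218, 18 and 42 shallower hepatocyte-like nuclei of ND, STZ-HFHC 1 and STZ-HFHC 2 left out. For Cyp2b9 it was 0.0771% in ND hepatocyte-like nuclei (4 of 5185), 31.3% in STZ-HFHC 1 (29.6 to 33.0, exact binomial) and 19.97% in STZ-HFHC 2 (18.8 to 21.1). In the other named classes it was 16.0% in STZ-HFHC 1, 506 of 4216 nuclei (11.04 to 13.02%) in STZ-HFHC 2 and 0 of 2644 nuclei in ND, which allows up to 0.113% at a floor of 3 counts (exact binomial upper limit 0.139%). Without thinning, the hepatocyte-like shares were 0.241%, 64.4% and 46.7%. The hepatocyte-like share of Cyp2b9 thus exceeded that of the other classes in each STZ-HFHC mouse.

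For Cyp2b10 the thinned shares were 0.424%, 2.49% and 4.46% in the 3 libraries, against 0.227%, 1.42% and 2.73% in the other named classes. For Cyp2b13 they were 0 in ND, which allows up to 0.0579% at the same floor (exact upper limit 0.0711%), then 1.02% and 0.679%, against 0.301% and 0.451% in the other classes of the STZ-HFHC mice. For STZ-HFHC 2 the exact binomial intervals of Cyp2b13 in hepatocyte-like and other nuclei overlapped, so a difference there was not detectable at this depth.

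The genes differed from each other along a score of liver zone markers. Hepatocytes near the central vein and near the portal tract hold different enzymes, and each hepatocyte-like nucleus was placed by the share of pericentral markers among its zone marker UMIs, in 3 ranges with limits at 33.3% and 66.7%. This split is a range of a score and not a cell type, and 372, 118 and 168 nuclei of ND, STZ-HFHC 1 and STZ-HFHC 2 lay within 0.05 of a limit. The pericentral range held 226, 168 and 212 nuclei, and the periportal range 4642, 2503 and 4261.

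Cyp2b9 was present at both ends and higher pericentrally in both mice. Its level was 689 CPM in the pericentral and 538 CPM in the periportal range of STZ-HFHC 1, and 776 and 289 CPM in STZ-HFHC 2. The ratio was 1.28 (1.201 to 1.36) in the first mouse and 2.68 (2.52 to 2.85) in the second, and the log2 ratios averaged 0.89 ± 0.75 (SD, n = 2). The direction was shared, and the size differed between the mice beyond counting error. In ND the 2 ranges held 2 and 13 UMIs.

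Cyp2b10 ran the opposite way in the STZ-HFHC mice. Its level was 2.67 CPM pericentrally and 38.2 CPM periportally in STZ-HFHC 1, and 8.42 and 58.2 CPM in STZ-HFHC 2. The ratios were 0.0698 (0.0190 to 0.179) and 0.145 (0.0769 to 0.248), and the mean log2 ratio was -3.20 ± 0.66 (SD, n = 2). In ND the level was low in both, 3.97 CPM on 4 UMIs and 3.45 CPM on 78 UMIs, with a ratio of 1.15 (0.306 to 3.07). It was not even across the score, since the ND middle range held 9.18 CPM (5.52 to 14.3) on 19 UMIs, against 2.73 to 4.31 for the periportal interval. The intervals of the STZ-HFHC ratios did not overlap that of ND, which comes from 1 mouse.

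Cyp2b13 followed Cyp2b9. Its level was 24.0 CPM pericentrally and 10.7 CPM periportally in STZ-HFHC 1, and 25.9 and 6.82 CPM in STZ-HFHC 2. The ratios were 2.25 (1.54 to 3.21) and 3.80 (2.64 to 5.34), and the mean log2 ratio was 1.56 ± 0.53 (SD, n = 2). The pericentral levels rest on 36 and 40 UMIs. These intervals treat UMIs as independent and are too narrow, since 26 and 25 hepatocyte-like nuclei held 63.2% and 66.3% of Cyp2b13 UMIs. The rise was not even. In STZ-HFHC 2 Cyp2b13 was at 16.1 CPM at scores of 0.1 to 0.2, 3.70 CPM at 0.3 to 0.4 and 45.7 CPM at 0.8 to 0.9.

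**Figure D2:**
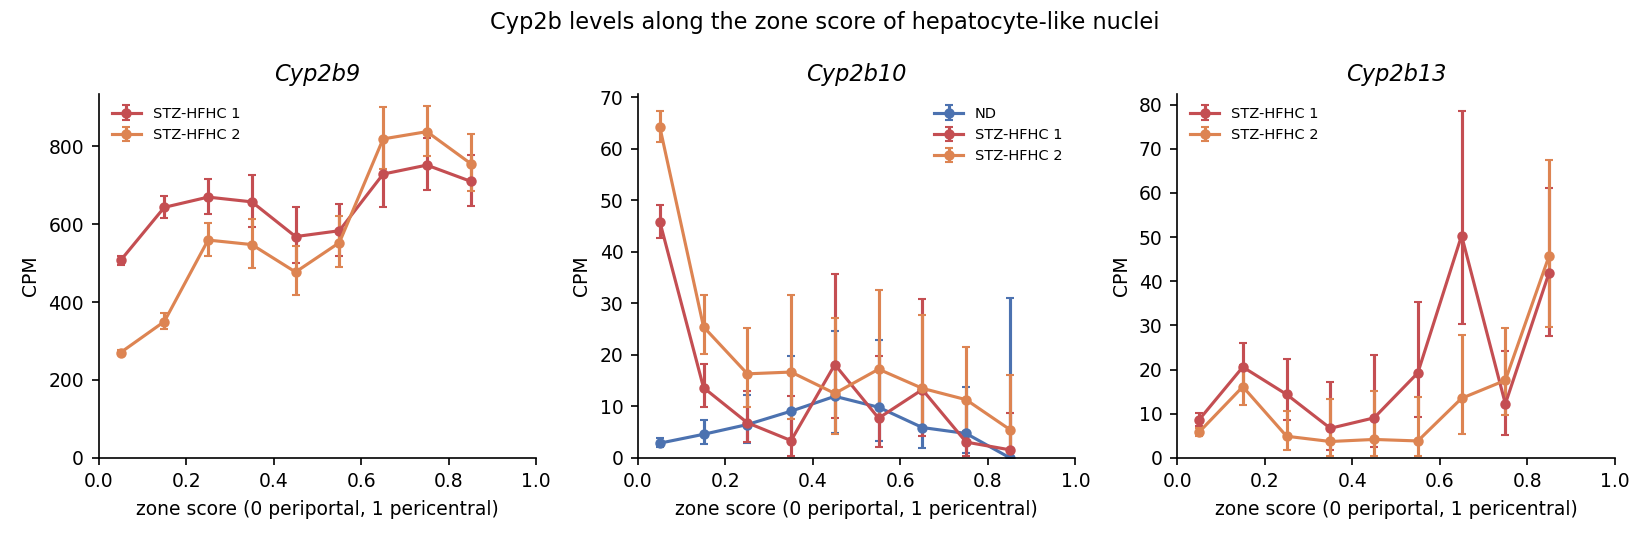
Levels of the Cyp2b genes in CPM in hepatocyte-like nuclei, by the pericentral share of their zone marker UMIs, with exact 95% Poisson intervals, and ND drawn only for Cyp2b10 since Cyp2b9 and Cyp2b13 had 15 UMIs and 1 UMI there. Cyp2b10 falls from 45.9 and 64.3 CPM in the most periportal bin of STZ-HFHC 1 and 2 to 13.6 and 25.4 CPM in the next, while Cyp2b9 is lowest in the most periportal bin of both mice. That bin holds most scored nuclei, 1913 and 3576 in STZ-HFHC 1 and 2.

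In finer steps, the fall of Cyp2b10 took place at the low end of the score. The lowest step held 1913 of 2853 and 3576 of 4752 scored nuclei in STZ-HFHC 1 and 2, so the fall cannot be placed within the lobule. In nuclei with a score under 0.1 its level was 45.9 and 64.3 CPM in the STZ-HFHC mice, and in the next step, up to 0.2, it was 13.6 (9.93 to 18.2) and 25.4 (20.2 to 31.6) CPM. Over the same step Cyp2b9 went from 507 to 643 CPM and from 270 to 350 CPM. In ND Cyp2b10 was 2.85 CPM (2.11 to 3.76) at a score under 0.1 and 11.9 CPM (4.80 to 24.6) at the middle of the score, on 7 UMIs.

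The clusters, which were built without these genes but with the zone markers, showed the same split. Leading genes of cluster 20 included Slc1a2 and the pericentral glutamine synthetase gene Glul. Those of cluster 13 included Sult1e1, Cyp2b10 itself and the periportal serine dehydratase gene Sds. Cluster 20 held 466 and 729 nuclei of STZ-HFHC 1 and 2, against 168 and 212 in the pericentral range, so some of its nuclei had lower scores. Cyp2b9 was at 756 and 593 CPM in cluster 20 of STZ-HFHC 1 and 2, against 325 and 251 CPM in cluster 13. Cyp2b10 was at 6.39 and 14.7 CPM in cluster 20 and at 79.6 and 103 CPM in cluster 13. Cyp2b13 was at 30.2 and 18.7 CPM in cluster 20 and at 6.97 and 6.16 CPM in cluster 13. The largest cluster, 21, lay between them for Cyp2b9 (551 and 303 CPM) and for Cyp2b10 (29.8 and 30.04 CPM). For Cyp2b13 it held 8.69 and 5.38 CPM, between them in STZ-HFHC 1 but not in STZ-HFHC 2. The small interferon-gene cluster 22 had 1129 and 273 CPM of Cyp2b9 on 24 and 43 nuclei. In ND, Cyp2b10 was at 7.68 CPM (5.25 to 10.8) in cluster 6, whose leading genes included the pericentral marker Lgr5. It was at 2.86 CPM (2.12 to 3.77) in cluster 3 and at 4.89 CPM (2.94 to 7.64) in cluster 1 of ND.

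Within hepatocyte-like nuclei the counts, here not thinned to equal depth, were unevenly spread. The largest count in 1 nucleus was 91 and 57 for Cyp2b9, 31 and 30 for Cyp2b10 and 24 in both STZ-HFHC mice for Cyp2b13, against 2, 4 and 1 in ND. The ND nuclei were shallower, with a median of 4031 UMIs against 8022 and 6522. The part of depth in this spread was not tested. The 286 and 475 nuclei with the highest Cyp2b9 counts, 10% of all, held 51.1% and 61.6% of Cyp2b9 UMIs. Cyp2b13 came mostly from few nuclei with several UMIs, since 26 and 25 nuclei with at least 3 UMIs held 63.2% and 66.3% of its counts.

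Whether the genes were found in the same nuclei was read at equal depth. At 2000 UMIs per nucleus, Cyp2b13 was found in 2.69% of nuclei with a Cyp2b9 UMI (32 of 1189) and in 0.882% of those without (14 of 1587) in STZ-HFHC 1. In STZ-HFHC 2 the shares were 2.41% (33 of 1369) and 0.464% (15 of 3233). Within the periportal range alone they were 2.11% against 0.696% and 2.23% against 0.464%. For Cyp2b10 the shares were 4.04% against 5.04% in STZ-HFHC 1 and 8.04% against 7.89% in STZ-HFHC 2, with overlapping intervals. These shares depend on the random draw of UMIs, and another draw gave 5.37% against 5.24% and 9.40% against 7.96% for Cyp2b10, and 2.77% against 0.821% and 2.77% against 0.279% for Cyp2b13. Since Cyp2b9 and Cyp2b13 share transcript windows, reads of 1 gene assigned to the other could add to the overlap, and their part was not tested. Without thinning, 21 of 128 and 21 of 106 nuclei with Cyp2b13 in the diseased mice had no Cyp2b9 UMI, and of those with at least 3 Cyp2b13 UMIs, 4 and 8 held more Cyp2b13 than Cyp2b9.

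The neighbours of the 3 genes on chromosome 7 were read next, over a region of 1.36 Mb that holds 46 annotated genes. Of its 24 genes in the files, 13 had at least 50 UMIs in hepatocyte-like nuclei, of which 9 were higher in both STZ-HFHC mice and 0 lower. With the 3 Cyp2b genes left out it was 6 of 10, beside 8.27% of all genes. Of these 6, Cyp2a4, Vmn1r184 and Nlrp9c had 0 or 1 UMI in ND and passed the limit of 50 UMIs only through the STZ-HFHC libraries, so they could be called only as higher and the count is no support for a rise of the region. Genes of a cluster share sequence and position and are not independent of each other.

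The higher neighbours included 3 genes of the 2A subfamily, which hydroxylate coumarin and steroids. Cyp2a5 was at 18.3, 155 and 145 CPM in ND, STZ-HFHC 1 and STZ-HFHC 2, ratios of 8.47 and 7.89. Cyp2a22 was at 3.19, 101 and 63.7 CPM, ratios of 31.5 and 19.97. Cyp2a4, a female-biased gene whose near copy is Cyp2a5, had no UMI in ND and was at least 408-fold and 94.3-fold higher in the STZ-HFHC mice when ND is taken at a floor of 3 counts, and its split from Cyp2a5 is uncertain. The other 3 were the receptor gene Nlrp9c with 1, 280 and 92 UMIs, the vomeronasal receptor gene Vmn1r184 with 0, 57 and 26 UMIs, and Gm42375 with 49, 124 and 162 UMIs, which is antisense and overlaps the start of Cyp2a4. Nlrp9c and Vmn1r184 lie among the P450 genes, and their counts in nuclei do not tell whether their own promoters were used.

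The other 4 genes with enough UMIs were not called higher. Cyp2a12 was at ratios of 1.56 and 1.35, Cyp2f2, a periportal P450, at 0.834 and 1.19, and Egln2, an oxygen-sensing hydroxylase, at 0.836 and 0.976. The antisense gene Gm15883 was at 0.253 and 0.780, low in STZ-HFHC 1 and under the limit in STZ-HFHC 2. The remaining genes of the 2B subfamily stayed near 0, with 0 UMIs for Cyp2b23 in all 3 libraries and 0, 1 and 9 UMIs for Cyp2b19, a skin enzyme. Cyp2b23 and Cyp2b19 both hold the letters TTGCATAA that Cyp2b10 holds, so this run of letters went with both a raised gene and genes near 0.

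**Figure D3:**
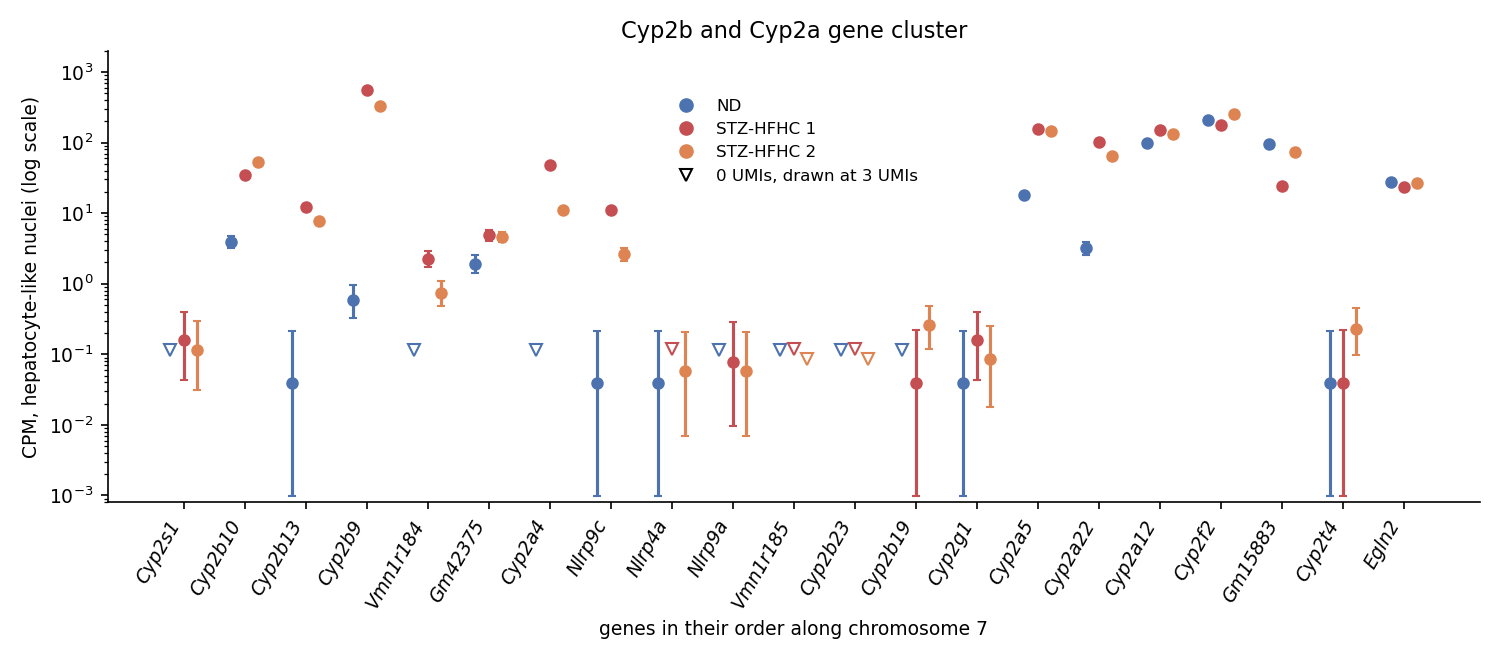
Levels in CPM (log axis) in hepatocyte-like nuclei of the genes of the chromosome 7 cluster in map order, for ND and both STZ-HFHC libraries, with exact 95% Poisson intervals and open triangles at 3 counts for 0 UMIs. Cyp2b10, Cyp2b13, Cyp2b9, Cyp2a4, Cyp2a5 and Cyp2a22 lie above ND in both STZ-HFHC mice, Cyp2a12, Cyp2f2 and Egln2 lie within 2-fold of it, and Gm15883 is at 0.253 of it in STZ-HFHC 1.

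The 2A neighbours did not share the zone pattern of 1 Cyp2b gene. The pericentral over periportal ratio of Cyp2a5 was 14.9, 3.33 and 4.11 in the 3 libraries, and that of Cyp2a22 was 4.24, 2.10 and 2.70, on the side of Cyp2b9. Cyp2a4 had ratios of 0.613 (0.446 to 0.823) and 0.278 (0.0897 to 0.654) in the STZ-HFHC mice, on the side of Cyp2b10. These rest on 46 and 5 pericentral UMIs. Its cluster 20 over 13 ratios were 0.896 (0.701 to 1.15) and 0.746 (0.481 to 1.13), with 1 inside both intervals, against 0.0802 and 0.143 for Cyp2b10.

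The receptors known to control Cyp2b genes were read next. Of 18 receptor and cofactor genes, which all had enough UMIs, 2 were higher and 1 lower, beside 8.27% and 5.6% of all genes. The lower one was Nr1i3 (CAR) itself, at 636, 175 and 198 CPM in ND, STZ-HFHC 1 and STZ-HFHC 2, with log2 ratios of -1.86 and -1.69. The pregnane X receptor gene Nr1i2 had log2 ratios of 0.22 and 0.46, and the retinoid X receptor gene Rxra 0.82 and 0.41, both under the limit. The higher ones were Foxo1, a transcription factor that insulin keeps out of the nucleus (1.34 and 1.17), and the coactivator gene Ppargc1a (1.63 and 2.27). Nr1i3 was 1.36, 1.79 and 2.05 times as high pericentrally as periportally in ND, STZ-HFHC 1 and STZ-HFHC 2, the reverse of Cyp2b10 in the STZ-HFHC mice.

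Other known targets of CAR and the pregnane X receptor moved in both directions, with 5 higher and 6 lower of the 33 (of 36 listed) that had enough UMIs, or 15.2% and 18.2% beside 8.27% and 5.6% of all genes. The higher ones were the efflux pump genes Abcc4 (log2 ratios 4.79 and 3.68) and Abcb1a (2.87 and 1.37), the glutathione transferase gene Gstm3 (2.85 and 2.43), Tsku (2.67 and 2.58) and the sulfotransferase gene Sult1d1 (1.35 and 1.38). The lower ones included the P450 genes Cyp2c54 (-2.68 and -2.93), Cyp2c29 (-2.02 and -1.78), Cyp2c50 (-1.10 and -1.28) and Cyp3a11 (-1.06 and -1.36). Ces2a (-1.83 and -1.42) and Gadd45b (-1.55 and -1.73) were lower too. Por, the reductase that supplies P450 enzymes with electrons, was at 1.34 and 0.86, and Alas1, which limits haem synthesis, at 0.21 and 0.29. Over the sums of hepatocyte-like nuclei, Cyp2b10 was thus higher and Cyp3a11, also a textbook target, lower.

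Since Cyp2b9 and Cyp2b13 are female-biased and the mice were male, genes known for sex bias in mouse liver were counted. Of 35 further female-biased genes 24 had enough UMIs, of which 6 were higher and 2 lower (25% and 8.33%, beside 8.27% and 5.6% of all genes), with a median log2 ratio of -0.11. Genes at or near 0 in ND had to be higher to have enough UMIs. The higher ones included Cyp2a4, Sult2a2 (3.75 and 2.98), Ntrk2 (3.02 and 4.13), Rad51b (4.18 and 2.75) and Prom1 (5.17 and 1.43). The lower ones were Slc22a28 (-3.47 and -2.93) and Hamp2 (-2.52 and -3.62). Cux2, the female-specific transcription factor of mouse liver, had 65, 442 and 45 UMIs in ND, STZ-HFHC 1 and STZ-HFHC 2, so only 1 STZ-HFHC mouse was high.

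Male-biased genes with a call were lower in these nuclei. Of 35 listed genes 31 had enough UMIs, of which 0 were higher and 15 lower (48.4%, beside 5.6% of all genes), with a median log2 ratio of -1.53. Like the other lists, this list was chosen with earlier results of these data known. It holds several Mup genes of the same family, which are not independent of each other, so the share is a description only. The 5 largest by the smaller of their 2 changes were Serpina1e (-9.79 and -7.34), the pheromone carrier genes Mup7 (-6.37 and -6.34) and Mup3 (-4.43 and -3.98), the fatty acid elongase gene Elovl3 (-6.21 and -4.28) and the steroid dehydrogenase gene Hsd3b5 (-4.29 and -4.26). Of 11 genes of the growth hormone axis, 0 were higher and 1 was lower, Igfals (-1.11 and -1.09), whose product carries insulin-like growth factor in blood. The share lower was 9.09% beside 5.6% of all genes. The growth hormone receptor gene Ghr was at -0.75 and -0.28, under the limit.

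Of 20 lipid uptake and storage genes 19 had enough UMIs, of which 4 were higher and 1 lower (21.1% and 5.26%, beside 8.27% and 5.6% of all genes). Cd36, a fatty acid transporter, was at log2 ratios of 3.81 and 3.25, the fatty acid binding protein gene Fabp4 at 2.39 and 2.30, Mogat1, which makes diacylglycerol, at 1.53 and 1.85, and the lipid droplet gene Cidec at 1.37 and 1.33. The fatty acid hydroxylase gene Cyp4a14 was lower (-1.22 and -2.29).

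**Figure D4:**
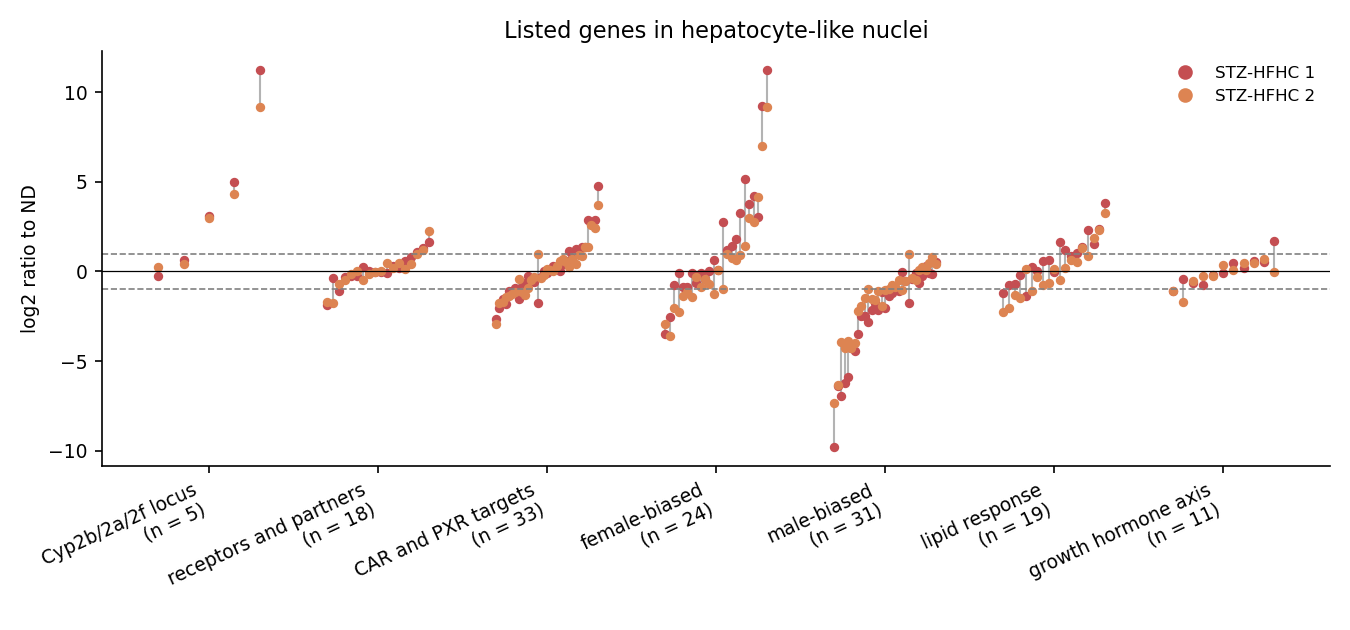
Log2 ratio to ND (0.5 added to each count) in hepatocyte-like nuclei of each tested gene in the lists read beside the Cyp2b genes, as 1 point for each STZ-HFHC mouse joined by a line, with dashed lines at 1 and -1 and genes that belong to 2 lists, such as Cyp2a4, drawn in both. The median of the male-biased genes is -1.53 and that of the female-biased genes is -0.11, and no male-biased gene is among those called higher.

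Across 21 sums of UMIs, 1 for each named class and library, the genes with levels most like those of Cyp2b9 were Gm19619 (Pearson r = 0.98 on log2 of CPM with 1 added), Cyp2a22 (0.97), Cd36 (0.97), Cyp2a5 (0.97) and Uty (0.96). Cyp2b10 had 0.87 and Cyp2b13 0.72. The sums share libraries and depth, and the Y-linked gene Uty is among the 5. Cyp2b9 was at no more than 6.21 CPM in the ND sums and at 136 to 553 CPM in the STZ-HFHC sums. These r values therefore mainly repeat the contrast on which Cyp2b9 was selected, and they do not show that the genes vary together within a library.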

How the data were processed

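Nuclei from frozen liver of 1 ND and 2 STZ-HFHC mice were profiled with the 10x 3′ v3.1 assay. The authors deposited raw UMI counts per gene and barcode, 1 library per mouse, made with Cell Ranger 7.0.1 on mm10 per the labels. Library totals were 72934861 to 77617520 UMIs. The annotation counted, the use of intronic reads and any correction for free RNA were not given in the sources used here, and neither was the age at harvest of these mice.

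Barcodes were kept (28336 of 30989) if they held 200 to 5000 genes and no more than 5% mitochondrial UMIs. Clustering used Scanpy 1.11.5 and leidenalg 0.10.2 (2000 variable genes, 30 components, 15 neighbours, resolution 1, no batch correction), without the Cyp2b genes and the listed genes other than type and zone markers. Clusters were named from marker lists by a rule set after the clusters were seen. Clusters 3, 6, 13, 20, 21 and 22 were named hepatocyte-like in a second pass, which asks for at least 3 of 12 hepatocyte markers at 1.2 times the clusters of other classes in the same library, and for fewer than 5 mitochondrial genes among the top 10. Cluster 4 met the first condition with 12 markers and not the second. Clusters 4, 12, 14 and 18, with 1.28%, 21.6% and 14.2% of ND, STZ-HFHC 1 and STZ-HFHC 2 nuclei, stayed unnamed. Scrublet marked 1, 0 and 0 nuclei, which did not work, so doublets were kept.

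UMIs were summed per class and library and given as CPM, with exact 95% Poisson, binomial and conditional ratio intervals (SciPy 1.17.1). Log2 ratios had 0.5 added to each count. Ratios to a library at 0 used a floor of 3 counts. Cells are not replicates and ND is 1 mouse, so no test between diets was made. On simulated data for this comparison over 14804 genes, the rule of size found 100 of 100 genes raised 4-fold, 89 of 100 lowered 4-fold and 2 of 14604 unchanged genes. The simulated counts held counting error only, so they say nothing of genes that pass through differences between mice. Zone scores needed at least 5 zone marker UMIs. Promoters were read from RefSeq (GRCm38.p6), and 32158 gene identifiers (99.6%) were found in GENCODE M21. Sequences were aligned with Biopython 1.88.

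The members and gene lists were chosen with earlier results of these data known. The text names the 3 members, their neighbours in the gene cluster, and from each list the members that passed the rule of size, at most the 5 largest. Other named genes are regulators or well-known targets, and several, such as Cux2 and Egln2, were chosen after their values were seen. A further gene that passed is not reported here.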

Additional observations from a re-analysis of the deposited data

Results flagged for a closer look

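The pericentral over periportal log2 ratio of Cyp2b10 was lower in the STZ-HFHC mice (mean) than in ND by -3.52, with both STZ-HFHC mice on one side of 0 and ND on the other. That of Gm42375, the antisense gene at Cyp2a4, differed by -4.25 in the same sense, on 4 pericentral UMIs in each STZ-HFHC mouse. Its STZ-HFHC zone ratios were 0.514 (0.138 to 1.35) and 0.562 (0.151 to 1.47), and its cluster 20 over 13 ratios were 1.18 (0.559 to 2.50) and 2.02 (1.15 to 3.54), on the other side of 1. Neither difference was tested, since ND is 1 mouse, and the ND ratio of Cyp2b10 rests on 4 pericentral UMIs.

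The barcodes excluded for over 5000 genes or over 5% mitochondrial counts also held Cyp2b RNA. In STZ-HFHC 1 and 2, Cyp2b9 was at 499.7 and 256 CPM in them, Cyp2b10 at 27.2 and 38.2 CPM and Cyp2b13 at 7.84 and 7.17 CPM. In ND the same kind of barcode held 1.15, 1.40 and 0.0287 CPM of the 3 genes.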

How the results depend on the processing

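Of 91 alternative values, 76 stayed within the set limits, 15 moved and 0 reversed. For ratios and shares the limit was the SD of the 2 STZ-HFHC mice around the main value. For gene counts it was a set fold. Leaving out 1 STZ-HFHC mouse cannot pass that SD, so those ratios and shares had to stay within it. The limit was wide for the Cyp2b9 zone log2 ratio (0.89 ± 0.75). With all deposited barcodes, the mean log2 ratio to ND was 8.71 for Cyp2b9 and 8.19 for Cyp2b13, and the Cyp2b13 share was 0.581%. Over all nuclei kept, Cyp2b13 was at 7.88 and 2287 genes were higher. The mean shares at 1000 UMIs (25.6%, 3.48% and 0.849% for Cyp2b9, Cyp2b10 and Cyp2b13) became 37.0%, 6.71% and 1.33% at 2000 UMIs. The counts of 1225 higher and 829 lower genes became 1914 higher with at least 10 UMIs, 2979 and 1971 with at least 1 UMI, and 352 and 118 at a log2 ratio of 2. Leaving out 1 STZ-HFHC mouse gave 1507 to 1880 higher and 1080 to 1868 lower genes, the upper values without replicate 2. It gave 0.36 to 1.42 for the Cyp2b9 zone log2 ratio. With zone limits at the ends of the score, the zone log2 ratios were 0.23, -2.65 and 1.05 for Cyp2b9, Cyp2b10 and Cyp2b13, and between clusters 20 and 13, a comparison chosen after seeing the data, 1.23, -3.21 and 1.85. Scaling by the median of ratios moved the share of higher among called genes from 59.6% to 49.7%, with 7 of 33 CAR targets and 17 of 31 male-biased genes then lower, and shifted the median of all genes from 0.08 and 0.10 to near 0. The causes were not tested. No paired analysis was possible because the labels link no STZ-HFHC mouse to the ND mouse, and no test was made. The sample titles carry a code whose first part differs between ND and the STZ-HFHC mice, and its meaning is not given.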
